A study of Mus musculus with 70 samples.

Results

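Bulk RNA sequencing was compared between 3 Kcnb2 knockout (KO) and 6 Kcnb2 wild-type (WT) mouse medulloblastomas, 9 of the 70 tumour libraries of the series. All 9 tumours carried Math1-Cre and SmoM2, so the controls share the oncogene and differ from the knockouts in the Kcnb2 genotype as labelled. A 10th library of this model was left out, because its title ends as those of the knockouts do while its genotype field reads wild-type. Titles of the 3 KO and of WT replicates 1 and 2 start with a number, and titles of WT replicates 3 to 6 start with MS_pos; what this form of the title stands for is not stated. Libraries held 32838448, 33677618 and 39387125 counts in KO tumours and 23923453 to 33959857 counts in WT tumours. The labels give no age, strain background or mouse identity, so p-values measure the spread between libraries, which may be technical in part. Y-linked genes marked 3 WT tumours (replicates 1, 3 and 4) as male and the other WT tumours and all 3 KO tumours as female.

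Medulloblastoma of the Sonic hedgehog (SHH) type grows from granule neuron progenitors of the cerebellum, cells that normally divide in response to the SHH ligand made by Purkinje cells and then migrate inwards and mature into granule neurons. Math1 (Atoh1) is the transcription factor of these progenitors, and its promoter drives the Cre recombinase that switches on SmoM2, an active form of Smoothened, the transducer that releases Gli transcription factors. Kcnb2 encodes Kv2.2, a voltage-gated potassium channel subunit that opens when the membrane depolarizes and lets potassium out of the cell. Granule lineage genes were abundant in every library, as the tissue label says: Atoh1 had 64.2, 66.3 and 124 CPM (counts scaled to a common library total) in KO tumours and ran from 85.9 to 158 CPM in WT tumours, with a median of 120.2. Barhl1 and Zic1, other transcription factors of the lineage, ran from 378 to 502 CPM and from 1099 to 1735 CPM over the 9 libraries.

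Kcnb2 (ENSMUSG00000092083) was lower in every KO tumour than in any WT tumour. It had 10.8, 13.8 and 9.93 CPM in KO tumours, from 364, 461 and 394 reads. It had 42.2, 39.8, 50.01, 39.6, 26.8 and 22.3 CPM in WT tumours, from 539 to 1403 reads. The groups did not overlap, although the WT tumours varied among themselves by more than 2-fold. The KO mean was 11.5 CPM against a WT mean of 36.8 CPM, which left 31.3% of the WT level. The log2 fold change was -1.83 ± 0.32 with the title form as covariate, and a two-sided exact permutation test on CPM over the 84 splits of 3 and 6 gave p = 0.0119, the smallest p that these splits allow. Those splits take no account of the title form; among the 5 libraries with number-first titles the same exact test gave p = 0.1, the smallest that 10 splits allow. In the edgeR fit across all genes it had an unadjusted p of 0.000231 and an adjusted p of 0.833, while DESeq2 gave an adjusted p of 0.000446 for a log2 fold change of -1.84. The labels do not say how the gene was inactivated, and the counts do not say where in the gene the remaining reads of KO tumours lie.

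**Figure D1:**
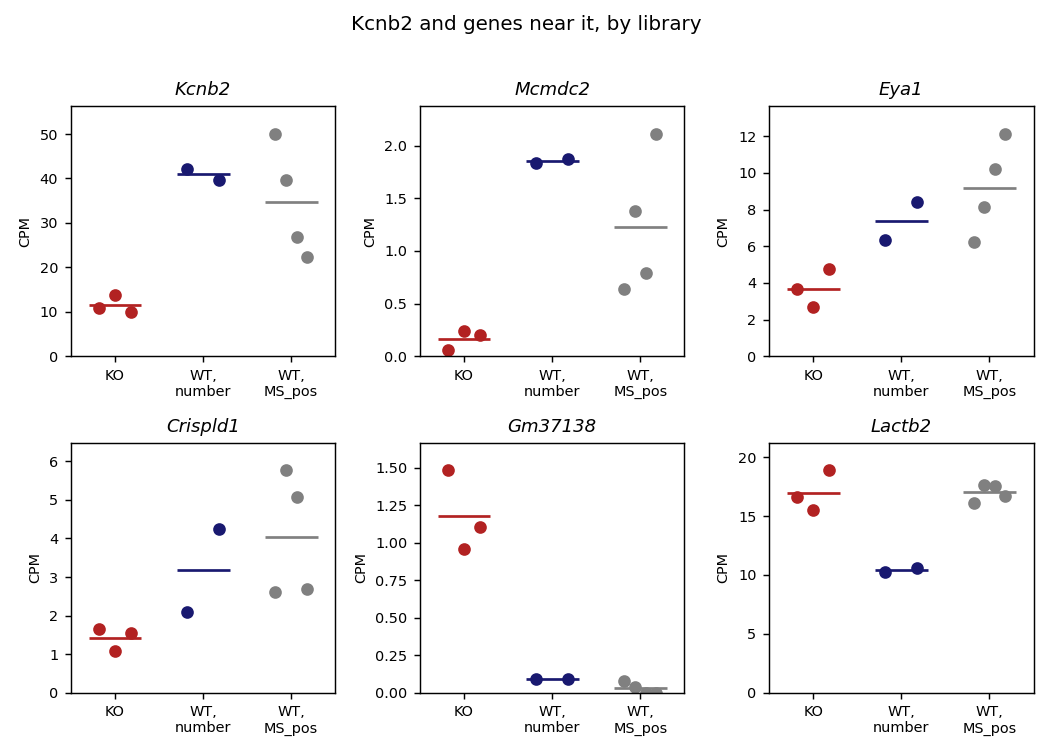
CPM (linear axis from 0) of Kcnb2 and 5 genes near it in each library, with KO tumours in red, WT tumours with number-first titles in dark blue, WT tumours with MS_pos titles in grey, and bars at group means. Kcnb2, Mcmdc2, Eya1 and Crispld1 were below all WT values in the 3 KO tumours and Gm37138 above them, whereas Lactb2 exceeded only the WT tumours with number-first titles in all 3.

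Of the 12 tested members of the list of Kv2 channels, silent Kv subunits that assemble with them and their membrane partners (Kcnb2 not counted), 9 were higher (49.7% of all genes were) and 3 lower in KO tumours, with a median log2 fold change of 0.28. Kcng2, a silent subunit that modifies Kv2 channels, had 3.86, 2.63 and 1.29 CPM in KO tumours and ran from 2.95 to 6.09 CPM in WT tumours, with a median of 4.21, with overlap between the groups. At -1.04 ± 0.47 it had the lowest log2 fold change of the list and went against most members.

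Several genes beside Kcnb2 on chromosome 1 also differed between the groups. Among the 25 tested genes on each side of Kcnb2, 7 of 50 (14%) had an unadjusted p under 0.05, against 4.88% of all 20464 genes tested, and 4 were among the 100 smallest p of the whole table. The window of 25 is wider than the rule for named genes, which takes 5 protein-coding neighbours on each side. Gm37138, which overlaps Kcnb2, is in both counts. Mcmdc2, a gene of meiotic recombination, had 0.0593, 0.239 and 0.202 CPM in KO tumours and ran from 0.643 to 2.11 CPM in WT tumours, with a median of 1.60. Every KO value lay below every WT value, for a log2 fold change of -3.44 ± 0.62. Eya1, a transcriptional coactivator and phosphatase, had 3.68, 2.66 and 4.74 CPM in KO tumours and ran from 6.24 to 12.1 CPM in WT tumours, with a median of 8.27, again with no overlap and a log2 fold change of -0.996 ± 0.34. Crispld1 had 1.66, 1.08 and 1.54 CPM in KO tumours and ran from 2.10 to 5.77 CPM in WT tumours, with a median of 3.47, without overlap.

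Opposite differences were seen within and next to the Kcnb2 gene itself. Gm37138, an unclassified transcript model inside Kcnb2 on the same strand, had 1.48, 0.956 and 1.11 CPM in KO tumours and at most 0.0901 CPM in WT tumours, 2 of which had no read. Gm6060, a processed pseudogene between Kcnb2 and Terf1, had 0.890, 0.687 and 0.655 CPM in KO tumours and 0 to 0.150 CPM in WT tumours. Both separated the groups completely at about 1 CPM or less. Because Gm37138 overlaps Kcnb2 and how such reads were counted is not known, reads of the 2 cannot be told apart with certainty. Mcmdc2, Crispld1, Gm37138 and Gm6060 were chosen for mention after their values were seen.

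Of the protein-coding genes next to Kcnb2 that were tested, Lactb2, a mitochondrial ribonuclease, had 16.6, 15.5 and 18.9 CPM in KO tumours, 10.2 and 10.6 CPM in the WT tumours with number-first titles and 16.1 to 17.7 CPM in those with MS_pos titles. Its log2 fold change of 0.71 ± 0.17 therefore rested on the WT pair that shares the title form of the KO tumours. Terf1, a telomere-binding protein, had 32.7, 30.0 and 33.3 CPM in KO tumours and ran from 24.1 to 33.0 CPM in WT tumours, with a median of 27.3, and Rpl7, a ribosomal protein, had 631, 550.2 and 689.8 CPM in KO tumours and ran from 573 to 885 CPM in WT tumours, with a median of 681. Both overlapped between the groups, as did Rdh10, Sbspon and Msc.

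**Figure D2:**
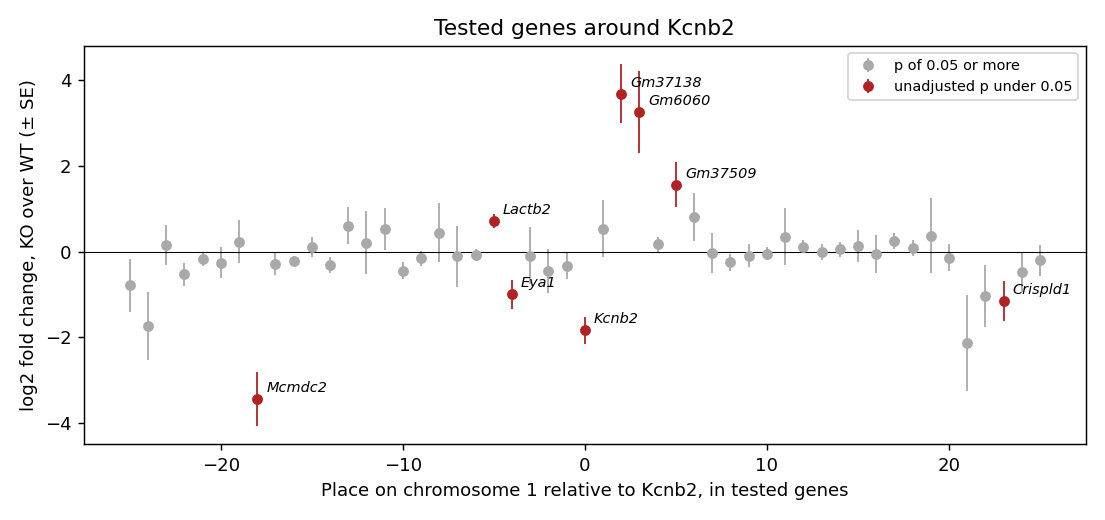
Log2 fold change of KO over WT with its standard error for Kcnb2 and the 25 tested genes on each side of it, by place along chromosome 1. Red points have an unadjusted p under 0.05, and the largest differences beside Kcnb2 were -3.44 for Mcmdc2 and 3.67 for Gm37138.

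Across the transcriptome, no gene passed an adjusted p of 0.05 in edgeR's quasi-likelihood test, and the smallest adjusted p was 0.833. Of 20464 genes tested, 606 (2.96%) had an unadjusted p under 0.05 and were higher in KO tumours, and 392 (1.92%) were lower. Together these were 4.88% of all genes, about the share that this cutoff gives when no gene differs. All 3 KO values lay above all 6 WT values for 412 genes (2.01%) and below them for 646 genes (3.16%). DESeq2 on the same libraries called 18 genes, 9 higher and 9 lower, and 4 of the lower ones were Eif2s3y, Ddx3y, Kdm5d and Gm29650, which are Y-linked. The other called genes were Rbp4, Kcnb2, Mcmdc2, Hjurp and Pde1c, which were lower, and Abhd3, Gm37138, Wipf3, Lactb2, Lyrm7, Hsf4, Drd2, Synpo and Car11, which were higher. The unadjusted counts rested on single libraries: without KO replicate 3 they were 976 higher and 812 lower, without KO replicate 1 they were 201 and 100, without KO replicate 2 they were 289 and 148, and without WT replicate 2 they were 330 and 147. Without WT replicate 1 the lower count was 819, and without WT replicate 3 the higher count was 1137.

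Of the 12 named genes with the smallest p that were lower in KO tumours, none passed the adjusted threshold in edgeR. Rbp4, the carrier of retinol in plasma, had 15.0, 11.2 and 14.4 CPM in KO tumours and ran from 25.3 to 38.7 CPM in WT tumours, with a median of 32.8. No values overlapped, and the log2 fold change was -1.38 ± 0.21 (unadjusted p = 0.000103, the smallest of all genes named by the rule). Hjurp, the chaperone that loads the centromeric histone CENP-A, had 216, 192 and 369.5 CPM in KO tumours and ran from 589 to 1191 CPM in WT tumours, with a median of 841. The groups were again separate, KO replicate 3 came closest to the WT range, and the log2 fold change was -1.78 ± 0.37. Pde1c, a phosphodiesterase activated by calcium and calmodulin, had 271, 289.7 and 274 CPM in KO tumours and ran from 305 to 462 CPM in WT tumours, with a median of 361, for a log2 fold change of -0.61 ± 0.13. Mycl, a member of the Myc family, had 133, 111 and 151 CPM in KO tumours and ran from 189 to 231 CPM in WT tumours, with a median of 200.1, for a log2 fold change of -0.58 ± 0.15. E2f2, a transcription factor of the cell cycle, had 25.2, 27.9 and 38.6 CPM in KO tumours and ran from 43.2 to 58.1 CPM in WT tumours, with a median of 48.8, for a log2 fold change of -0.81 ± 0.20. All KO values of these 5 genes lay below all WT values.

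N4bp3, Carhsp1 and Crybg3 also had all KO values below all WT values, with log2 fold changes of -1.09 ± 0.25, -0.56 ± 0.13 and -0.77 ± 0.19. Pttg1, which encodes securin, the inhibitor of separase, had 13.4, 10.3 and 11.7 CPM in KO tumours and ran from 12.6 to 28.6 CPM in WT tumours, with a median of 23.6. Its log2 fold change was -1.13 ± 0.28, and 1 WT tumour, replicate 6, lay within the KO range. Cd82, a tetraspanin, and Pald1, which encodes paladin, overlapped between the groups at log2 fold changes of -0.99 ± 0.23 and -0.64 ± 0.16.

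None of the 12 named genes with the smallest p on the higher side passed that threshold either. Abhd3, a phospholipase, had 27.1, 29.7 and 33.5 CPM in KO tumours and ran from 11.5 to 27.0 CPM in WT tumours, with a median of 17.9. The lowest KO tumour and the highest WT tumour were almost equal, and the log2 fold change was 1.33 ± 0.23, with the WT pair of number-first titles at 11.5 and 12.4 CPM. Wipf3, a partner of the actin regulator WASP, had 11.3, 12.6 and 12.9 CPM in KO tumours and ran from 2.91 to 8.21 CPM in WT tumours, with a median of 6.16. Car11, a brain protein related to carbonic anhydrases, had 31.0, 32.8 and 27.9 CPM in KO tumours and ran from 8.63 to 16.4 CPM in WT tumours, with a median of 11.8. Both were separate between the groups, at log2 fold changes of 1.52 ± 0.33 and 1.17 ± 0.27. Adgrb1, an adhesion receptor of synapses and phagocytosis, had 103, 87.7 and 90.0 CPM in KO tumours and ran from 40.4 to 83.8 CPM in WT tumours, with a median of 57.3, for a log2 fold change of 0.94 ± 0.26. Zmat1, a zinc finger gene, was also above all WT values, at 0.68 ± 0.18.

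The other genes named on this side overlapped between the groups. Lyrm7, an assembly factor of respiratory complex III, had a log2 fold change of 1.62 ± 0.38, and Ogdhl, a relative of oxoglutarate dehydrogenase, one of 1.23 ± 0.33. The lipid enzymes Plpp3 and Scd1 stood at 1.02 ± 0.24 and 1.29 ± 0.35, the actin-associated synaptopodin gene Synpo at 1.28 ± 0.31, and Ctxn3 at 1.56 ± 0.41. Each of these 6 genes was above both WT tumours with number-first titles in all 3 KO tumours and below at least 1 of the others in some, and 13% of all genes tested were above that pair in the same way.

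**Figure D3:**
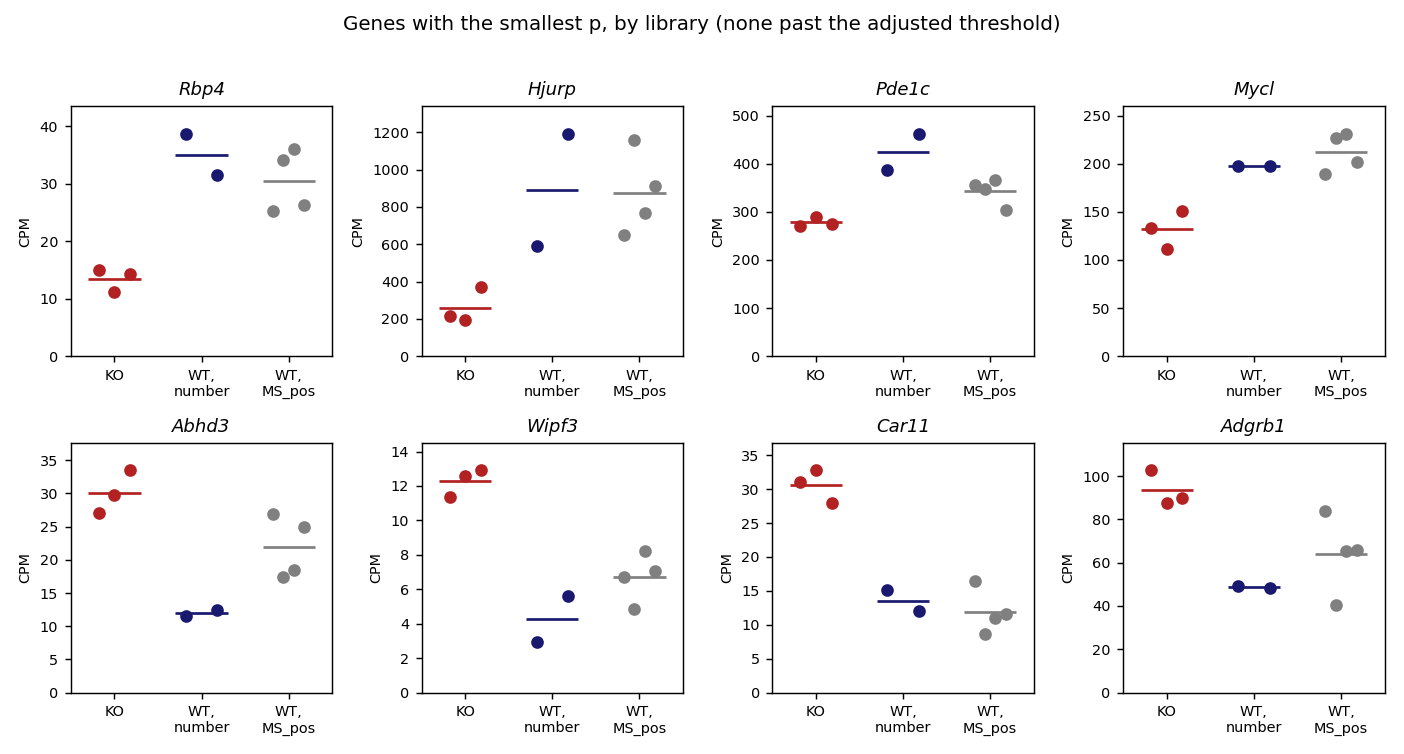
CPM (linear axis from 0) in each library of 4 genes that were lower (Rbp4, Hjurp, Pde1c, Mycl) and 4 that were higher (Abhd3, Wipf3, Car11, Adgrb1) in KO tumours, with bars at group means. All 3 KO values lay outside the WT range for each of the 8 genes, and none passed the adjusted threshold in edgeR.

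Hedgehog pathway genes were mostly lower in KO tumours, by amounts within the spread of the libraries. Of 15 tested genes, 14 were lower and 1 was higher, against 50.3% lower among all genes, and the median log2 fold change was -0.33, against -0.0028 for all genes. At an unadjusted p under 0.05, 0 were lower, against 1.92% of all genes, and 1 was higher, against 2.96%. Gli1, the transcription factor whose own transcription reports pathway activity, had 129.7, 90.0 and 165 CPM in KO tumours and ran from 117 to 259 CPM in WT tumours, with a median of 195. The WT pair with number-first titles, at 158 and 245 CPM, included a value below the highest KO tumour, and the log2 fold change of -0.65 ± 0.36 had an unadjusted p of 0.105. Without WT replicate 2 the value was -0.29. Ptch1, the receptor that holds Smoothened in check and is itself a target, had 441, 338 and 598 CPM in KO tumours and ran from 467 to 1207 CPM in WT tumours, with a median of 746. Mycn, which drives progenitor division, had 219, 217 and 283 CPM in KO tumours and ran from 265 to 325 CPM in WT tumours, with a median of 292, for a log2 fold change of -0.33 ± 0.15.

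Hhip, a decoy receptor and target, varied most, with 27.0, 14.7 and 22.1 CPM in KO tumours, 17.6 and 75.4 CPM in the WT pair with number-first titles and 25.9 to 109 CPM in those with MS_pos titles. Its log2 fold change was -1.13 ± 0.74, and 0.28 without WT replicate 2. Ccnd1, the cyclin that Hedgehog signalling raises, had 124, 99.5 and 281 CPM in KO tumours and ran from 186 to 526 CPM in WT tumours, with a median of 278. The coreceptors differed in direction: Boc was at -0.41 ± 0.20 on the log2 scale and Cdon, the single higher member, at 0.82 ± 0.30, with 7.54, 9.62 and 6.38 CPM in KO tumours and 4.03 to 8.43 CPM in WT tumours. No Hedgehog gene separated the groups completely, where 2.01% of all genes had all KO above all WT values and 3.16% all below. The median of the list ran from -0.50 to -0.20 over the fits that left out 1 library each, with the smallest difference without WT replicate 2.

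Genes of mitosis were lower in KO tumours almost without exception. Of 26 tested genes, 25 were lower, 7 of them at an unadjusted p under 0.05 (26.9%, against 1.92% of all genes), with a median of -0.42. The list score, the mean log2 CPM of its tested genes, was 6.41, 6.29 and 6.92 in KO tumours and 6.73 to 7.12 in WT tumours. KO replicates 1 and 2 lay below all WT tumours and KO replicate 3 among them. Kif11, a spindle motor, had 165, 172 and 239.5 CPM in KO tumours and ran from 194 to 292 CPM in WT tumours, with a median of 249, for a log2 fold change of -0.54 ± 0.18, with overlap. Nusap1, a microtubule-binding spindle protein, had 91.2, 86.6 and 126 CPM in KO tumours and 132 to 155 CPM in WT tumours, with no overlap. Mki67, which encodes the proliferation antigen Ki-67, had 506, 517 and 740.3 CPM in KO tumours and ran from 585 to 909 CPM in WT tumours, with a median of 713, with a log2 fold change of -0.43 ± 0.23 and overlapping values.

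DNA replication genes also had KO replicates 1 and 2 below all WT tumours, with scores of 5.75, 5.58 and 6.29 in KO tumours and 6.07 to 6.43 in WT tumours. Of 26 tested genes, 25 were lower in KO tumours, 2 at an unadjusted p under 0.05 (7.69%, against 1.92% of all genes), and the median was -0.33. Mcm7 and Mcm2, subunits of the replicative helicase, had 231, 211 and 325 CPM and 123, 106 and 186 CPM in KO tumours, against 282 to 391 CPM and 161 to 222 CPM in WT tumours. Pcna, the sliding clamp of DNA polymerase, had 238, 215 and 323 CPM in KO tumours and ran from 225 to 321 CPM in WT tumours, with a median of 277. KO replicate 3 exceeded every WT tumour in Pcna and KO replicates 1 and 2 were near the low end. Without KO replicate 3 the median of the mitosis list was -0.64 and that of the replication list -0.57, and without WT replicate 2 they were -0.30 and -0.18. The replication median was -0.18 without KO replicate 2 as well.

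Promoters of the mitosis genes are shown because nearly all of the list was lower and such genes are known for 2 elements, the CCAAT box and the cell cycle homology region (CHR). Promoter sequences of RefSeq on GRCm38.p6 were found for 21 of the 26 genes. CCAAT was present on either strand in the 250 bases before the start of 17 of them (81.0%), against 37.5% of 27025 genes with a promoter in the table, and TTTGAA, the core of the CHR, in 7 (33.3%), against 18.3%. With the 50 bases after the start included, a window chosen after the first counts were seen, CCAAT was again present in 17 (81.0%), against 41.1% of all genes, and TTTGAA in 14 (66.7%), against 20.2%. Of 21 DNA replication genes with a promoter, in the 250 bases before the start, CCAAT was present in 61.9% and TTTGAA in 19.0%. Of 9 Hedgehog genes these shares were 22.2% and 33.3%, the share of TTTGAA being that of the mitosis genes in this window, and of 10 oligodendrocyte genes they were 40.0% and 0. TTTGGCGC or TTTCGCGC, forms of the E2F site, were present before the start of 4.76% of mitosis genes, 14.3% of replication genes and 0.759% of all genes. With the 50 bases after the start included, these shares were 4.76%, 38.1% and 0.929%. In that wider window TTTGAA was present in 19.0% of replication genes, 33.3% of Hedgehog genes and 0 of oligodendrocyte genes. The 250 bases before the starts of Kif11 (GRCm38.p6, chr19:37376132-37376381, plus strand) and of Mki67 (GRCm38.p6, chr7:135716380-135716629, minus strand) read, 5′ to 3′ on the strand of the gene and with both motifs on either strand in capitals:
Kif11: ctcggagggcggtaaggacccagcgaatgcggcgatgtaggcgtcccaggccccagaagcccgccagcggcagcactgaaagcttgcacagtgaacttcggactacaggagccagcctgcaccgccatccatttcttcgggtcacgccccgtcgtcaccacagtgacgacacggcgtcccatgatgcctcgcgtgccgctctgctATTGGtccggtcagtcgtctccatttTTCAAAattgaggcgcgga
Mki67: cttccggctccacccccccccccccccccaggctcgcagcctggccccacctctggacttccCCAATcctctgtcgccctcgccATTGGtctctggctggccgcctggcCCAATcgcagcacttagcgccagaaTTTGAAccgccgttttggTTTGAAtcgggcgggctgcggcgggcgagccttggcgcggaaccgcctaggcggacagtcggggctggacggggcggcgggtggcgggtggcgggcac
Kif11 had 1 match to each motif and Mki67 had 3 matches to CCAAT and 2 to TTTGAA. A match is a run of letters and not a measured binding site.

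Transcription factors that mark granule progenitors were balanced, with 7 of 12 higher and 5 lower in KO tumours and a median of 0.04. Atoh1 was at -0.26 ± 0.31 on the log2 scale, Barhl1 at -0.09 ± 0.15 and Zic1 at 0.01 ± 0.19, each with overlapping groups. The exception was Meis2, a homeobox gene of several neuron types, with 23.4, 4.93 and 0.176 CPM in KO tumours and 0.391 to 5.18 CPM in WT tumours. KO replicate 1 was far above and KO replicate 3 below all the others.

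Genes of granule neuron maturation differed in direction. Of 25 tested genes 14 were higher and 11 lower in KO tumours, with a median of 0.26 that ran from -0.04 to 0.67 over the fits without 1 library, and was 0.66 without title form and 0.89 with sex as a further term. Etv1, a transcription factor that responds to activity in maturing granule cells, had 137, 209 and 99.4 CPM in KO tumours and ran from 44.3 to 124 CPM in WT tumours, with a median of 69.9. Cbln1, the synapse organizer that granule cells release, had 249, 357 and 174 CPM in KO tumours and ran from 71.1 to 212 CPM in WT tumours, with a median of 92.4. Gabra6, the receptor subunit of mature granule cells, had 139, 239 and 76.1 CPM in KO tumours and 0.0382 to 177 CPM in WT tumours, a range that held all KO values but KO replicate 2. The postmitotic markers Neurod1, Cntn2 and Rbfox3 were at 0.26 ± 0.54, -0.17 ± 0.27 and 0.59 ± 0.37, each with overlapping groups.

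Ion channel genes other than Kcnb2 were mostly higher in KO tumours. Of 30 other voltage-gated potassium channel genes 24 were higher, 6 at an unadjusted p under 0.05 (20%, against 2.96% of all genes), with a median of 0.84, which was 0.51 without KO replicate 2 and 1.13 without KO replicate 3. Kcnc4 and Kcnc2, fast delayed rectifiers of the Kv3 family, had 24.3, 15.8 and 7.66 CPM and 21.8, 6.81 and 1.21 CPM in KO tumours, against 2.44 to 11.5 CPM and 0.481 to 8.05 CPM in WT tumours. Kcna6, of the Kv1 family, had 24.5, 20.4 and 13.6 CPM in KO tumours and ran from 5.42 to 22.9 CPM in WT tumours, with a median of 11.0. All 3 overlapped between groups, with KO replicate 1 the highest and WT replicate 3 the highest of the WT tumours. Of 23 calcium-activated, inward rectifier and leak channel genes, 20 were higher, with a median of 0.45. Kcnn1, a small-conductance calcium-activated channel, was at 0.99 ± 0.38, while Kcnn4, the intermediate-conductance one, had 1.10, 0.627 and 1.49 CPM in KO tumours and 1.10 to 4.52 CPM in WT tumours, at -1.34 ± 0.56.

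Genes of excitability and synapses went the same way. Of 23 voltage-gated sodium and calcium channel genes 21 were higher, with a median of 0.58, which was 0.98 without WT replicate 1 and 0.89 without KO replicate 3. At an unadjusted p under 0.05, 0 of these 23 genes were higher, against 2.96% of all genes. Scn1a, a sodium channel of fast-spiking neurons, had 74.8, 61.9 and 23.7 CPM in KO tumours and 7.71 to 50.1 CPM in WT tumours. All 20 tested synaptic vesicle genes were higher, with a median of 0.78, as were 22 of 23 glutamate and GABA receptor subunits, with a median of 0.82. Of these, 2 vesicle genes (10%) and 1 receptor subunit gene (4.35%) had an unadjusted p under 0.05. Snap25, a protein of vesicle fusion, had 834, 913 and 405 CPM in KO tumours and ran from 131 to 567 CPM in WT tumours, with a median of 182. KO replicates 1 and 2 were above all WT tumours, and KO replicate 3 was not. Grin2d, a subunit of NMDA receptors, had 10.5, 8.99 and 6.38 CPM in KO tumours and 3.55 to 6.54 CPM in WT tumours. Of the 2 WT tumours with number-first titles, replicate 1 stood near KO replicate 3 in Snap25, at 388 CPM.

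Markers of oligodendrocytes, interneurons and Purkinje cells, cells of normal cerebellum, had the largest median differences of the 34 lists with at least 5 tested members. All 14 oligodendrocyte and myelin genes were higher in KO tumours, 6 at an unadjusted p under 0.05 (42.9%, against 2.96% of all genes), with a median log2 fold change of 2.38. Mbp, a main protein of myelin, had 1544, 863 and 346 CPM in KO tumours, against 83.4 to 1142 CPM in WT tumours. WT replicate 3 lay within the KO range, at 1142 CPM of Mbp, and KO replicate 3 stood just above the other WT tumours. Cldn11, a tight junction protein of myelin, had 119.5, 62.4 and 27.1 CPM in KO tumours and ran from 12.3 to 93.1 CPM in WT tumours, with a median of 18.6. The oligodendrocyte score was 6.48, 5.57 and 4.17 in KO tumours, 3.17 and 2.80 in the WT pair with number-first titles and 1.37 to 6.09 in those with MS_pos titles.

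Neuron markers were higher too. Of 12 Purkinje cell genes 11 were higher in KO tumours, with a median of 1.70, and Pcp2, a gene of these cells and of few others, had 18.0, 32.8 and 19.3 CPM in KO tumours and 0.153 to 34.2 CPM in WT tumours. At an unadjusted p under 0.05, 0 of the 12 Purkinje cell genes were higher, against 2.96% of all genes. All 12 inhibitory interneuron genes were higher, 3 at an unadjusted p under 0.05 (25%), with a median of 1.84. Pax2, a transcription factor of young interneurons, had 1.16, 1.16 and 0.832 CPM in KO tumours and 0 to 1.17 CPM in WT tumours. Without WT replicate 2 the Purkinje and interneuron medians were 0.96 and 1.12, and without WT replicate 1 they were 2.496 and 3.08. The tumours scored 5.39, 5.95 and 5.31 for Purkinje cell genes in KO and 1.48 to 5.96 in WT.

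Astrocyte and Bergmann glia genes were higher for 11 of 14, with a median of 0.47. The list score was 6.91, 6.82 and 6.79 in KO tumours, within the WT range of 5.94 to 7.33. WT replicates 3 and 6, at 7.23 and 7.33, scored above every KO tumour. Aldoc, an aldolase of astrocytes and some Purkinje cells, had 548, 487 and 466 CPM in KO tumours and 187 to 463 CPM in WT tumours, without overlap. Slc1a2, an astrocyte glutamate transporter, had 798, 658 and 811 CPM in KO tumours and ran from 503 to 742 CPM in WT tumours, with a median of 607, and Gfap, the intermediate filament of reactive astrocytes, had 193, 299 and 406 CPM in KO tumours and ran from 169.7 to 1941 CPM in WT tumours, with a median of 311. In bulk RNA, fewer cells of a type and less RNA per cell cannot be told apart, and the part of these cells in the differences of channel, synapse, cell cycle and Hedgehog genes was not tested.

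The first principal component of the 500 most variable genes, Y-linked genes and Xist left out, held 51.5% of their variance. Scores were 37.0, 34.3 and 7.12 in KO tumours and 5.06, -26.7, 20.0, -49.5, -12.0 and -15.3 in WT replicates 1 to 6. KO replicates 1 and 2 and WT replicate 3 stood at one end, WT replicate 4 at the other, and KO replicate 3 next to WT replicate 1. All 9 oligodendrocyte genes, all 7 Purkinje cell genes and all 8 interneuron genes among the 500 had positive weights on it. This was not particular to those lists. All 7 interferon-stimulated genes, all 6 granule neuron maturation genes and all 6 glutamate and GABA receptor genes among the 500 had positive weights too. The 1 gene of the Kv2 list, the 1 choroid plexus gene and 1 of 2 red cell genes did not.

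**Figure D4:**
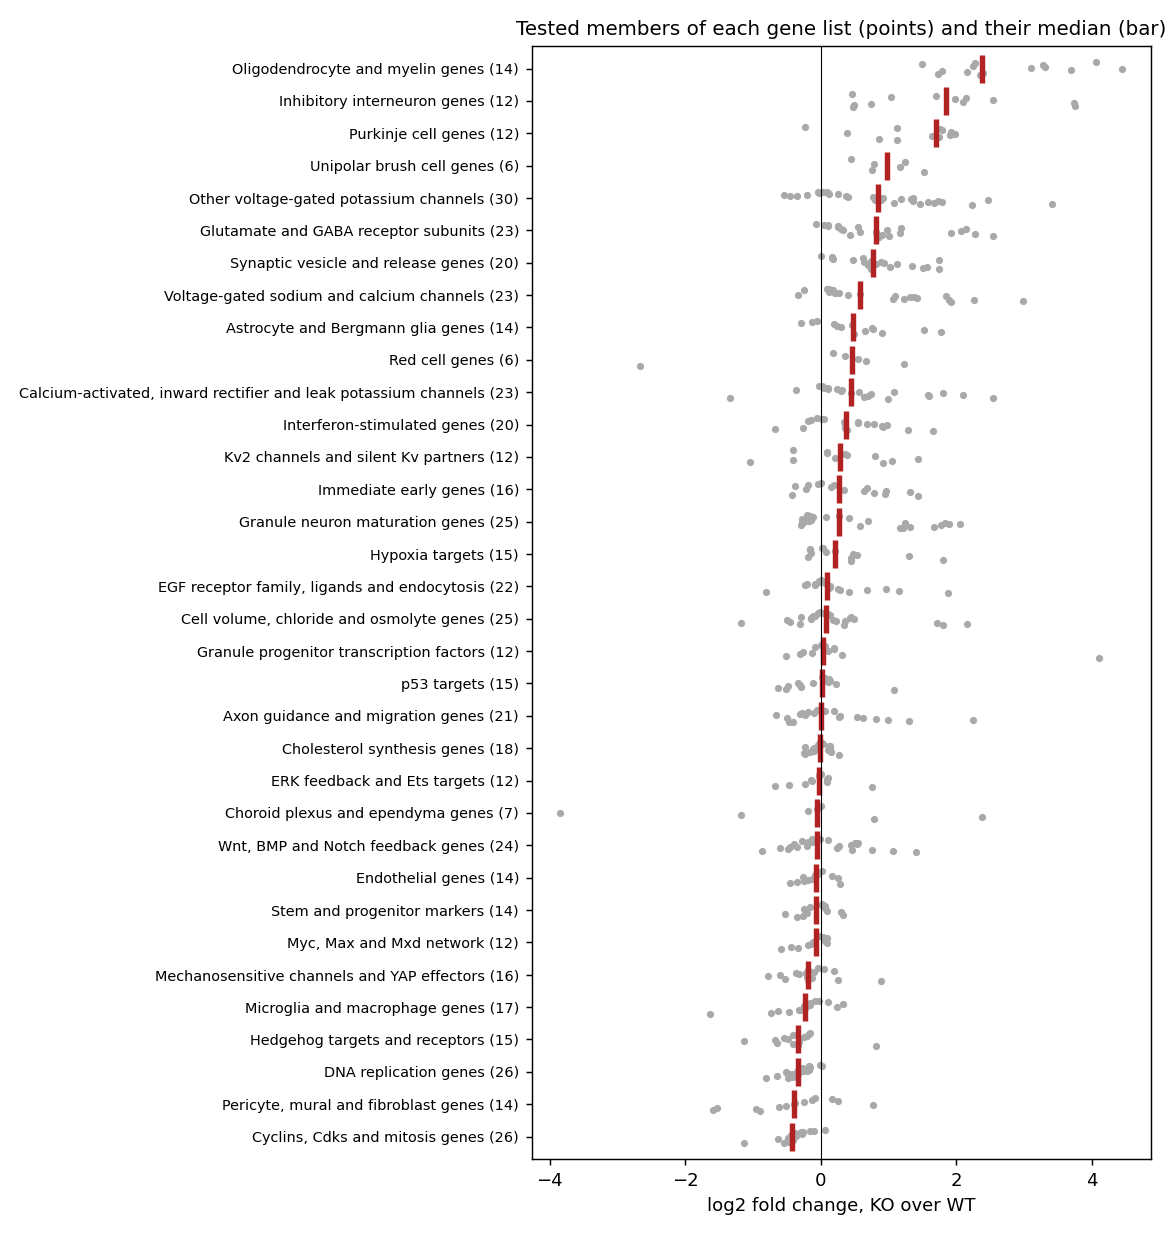
Log2 fold change of KO over WT for each tested member (grey points) of 34 gene lists with at least 5 tested members, with the median as a red bar and the number tested in parentheses. Medians ran from 2.38 for oligodendrocyte and myelin genes to -0.42 for cyclins, Cdks and mitosis genes.

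**Figure D5:**
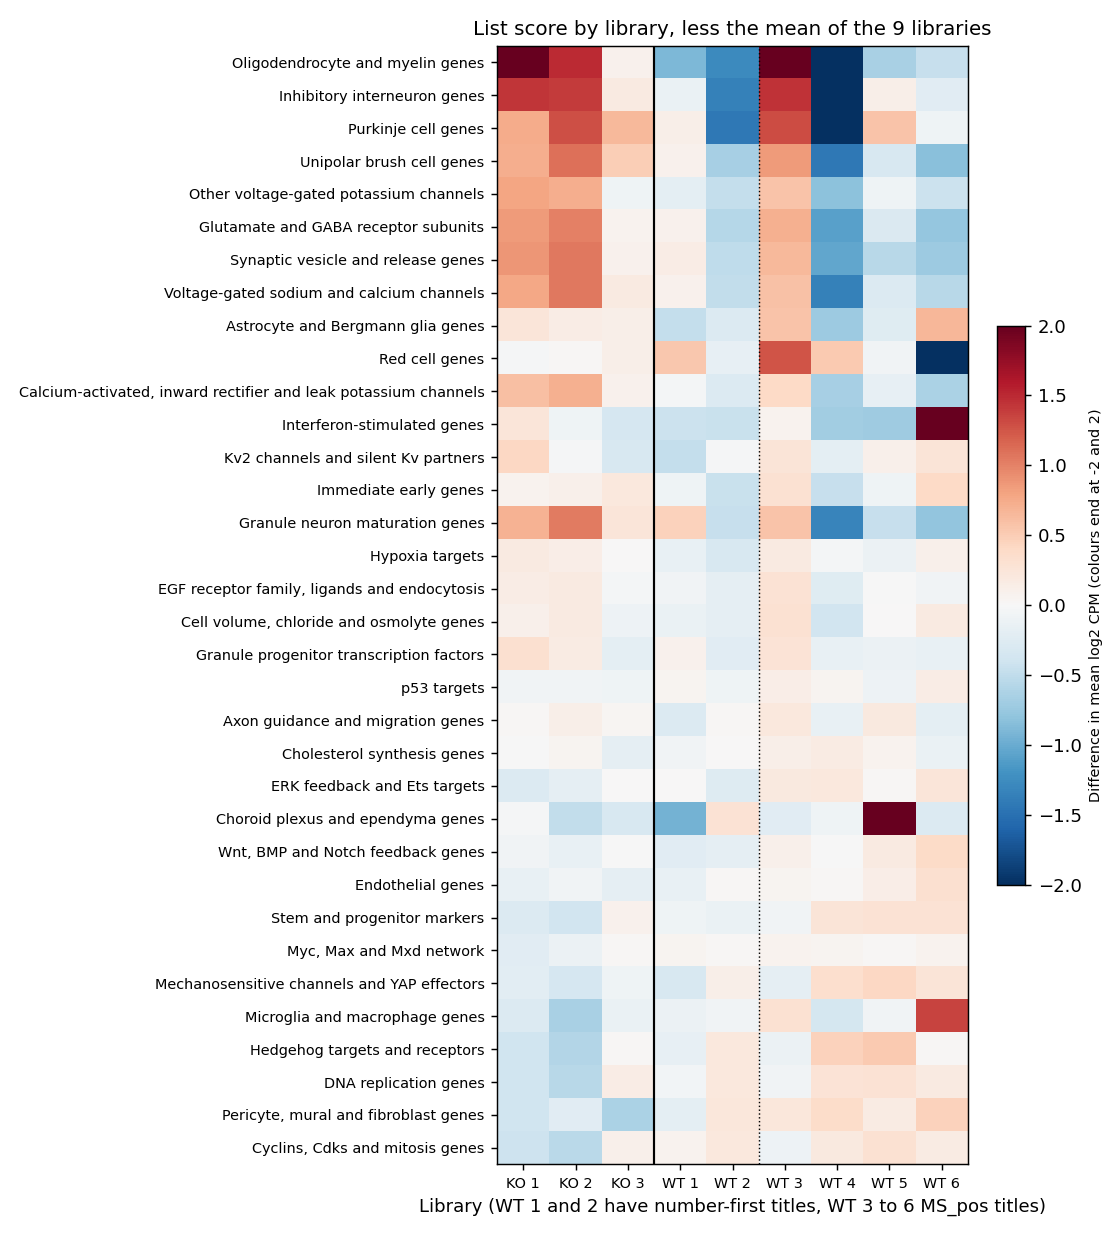
Score of each list (mean log2 CPM of tested members) in each library, as the difference from the mean of the 9 libraries, with KO tumours left of the solid line and WT tumours with number-first titles left of the dotted line. The oligodendrocyte, Purkinje cell, interneuron, synaptic vesicle and glutamate and GABA receptor lists were above their means in KO replicates 1 and 2 and WT replicate 3 and lowest in WT replicate 4, with KO replicate 3 nearer the mean than the other KO tumours.

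Of 22 genes of the EGF receptor family, its ligands and its endocytosis, 15 were higher and 7 lower in KO tumours, with a median of 0.10. Egfr had 65.8, 93.5 and 97.3 CPM in KO tumours and ran from 78.4 to 217 CPM in WT tumours, with a median of 136, for a log2 fold change of -0.81 ± 0.41 (unadjusted p = 0.0756), which was -0.38 without WT replicate 2. Erbb3, a receptor of the family also found in oligodendrocytes, had 7.65, 4.24 and 3.10 CPM in KO tumours and 0.993 to 5.07 CPM in WT tumours, at 1.88 ± 0.66. Of 12 ERK feedback genes 8 were lower, and 2 phosphatases of the pathway separated the groups in opposite directions, where 2.01% of all genes had all KO above all WT values and 3.16% all below. Dusp6, which acts on ERK in the cytoplasm, had 19.3, 17.9 and 26.5 CPM in KO tumours and 30.7 to 60.9 CPM in WT tumours, and Dusp5, which acts on it in the nucleus, had 47.1, 64.9 and 50.4 CPM in KO tumours and 28.0 to 45.4 CPM in WT tumours. Their log2 fold changes were -0.68 ± 0.24 and 0.75 ± 0.23.

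Of 25 cell volume, chloride and osmolyte genes 14 were higher, with a median of 0.08. Lrrc8a, the required subunit of the volume-regulated anion channel, had 19.9, 19.2 and 18.8 CPM in KO tumours and ran from 11.4 to 22.8 CPM in WT tumours, with a median of 15.6. Slc12a5, the potassium-chloride cotransporter of neurons, had 178, 192 and 66.1 CPM in KO tumours and 4.51 to 134 CPM in WT tumours. Of 16 mechanosensitive channel and YAP effector genes 12 were lower, against 50.3% of all genes, with a median of -0.18, which was 0.014 without WT replicate 2. Piezo2, a stretch-activated channel, had 1.34, 0.896 and 1.86 CPM in KO tumours and 1.14 to 4.96 CPM in WT tumours.

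Of 14 pericyte, mural and fibroblast genes 11 were lower in KO tumours, 4 at an unadjusted p under 0.05 (28.6%, against 1.92% of all genes), with a median of -0.39, and -0.11 without WT replicate 2. The list score was 3.59, 3.75 and 3.35 in KO tumours and 3.79 to 4.45 in WT tumours, without overlap. Col3a1, a fibrillar collagen, had 20.9, 25.4 and 16.9 CPM in KO tumours and ran from 25.3 to 128 CPM in WT tumours, with a median of 86.6, and Abcc9, the sulfonylurea receptor of pericyte potassium channels, had 8.43, 8.87 and 10.9 CPM in KO tumours and ran from 9.11 to 20.5 CPM in WT tumours, with a median of 17.5. Kcnj8, the pore of the same channel, had 5.13, 5.20 and 6.80 CPM in KO tumours, 12.9 and 8.38 CPM in the WT pair with number-first titles and 4.81 to 6.09 CPM in those with MS_pos titles, so that the KO tumours differed from the pair alone. Col1a1 was at -0.38 ± 0.34.

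Microglia and macrophage genes were lower for 14 of 17, with a median of -0.23, which was -0.041 without KO replicate 2 and -0.39 without KO replicate 3. Mrc1, a receptor of macrophages at brain borders, had 2.11, 3.08 and 2.19 CPM in KO tumours, 2.34 and 13.0 CPM in the WT pair with number-first titles and 8.25 to 29.5 CPM in those with MS_pos titles, and Cx3cr1, a microglial receptor, had 43.8, 28.8 and 50.2 CPM in KO tumours and ran from 26.7 to 111 CPM in WT tumours, with a median of 45.2. Of 14 endothelial genes 10 were lower, with a median of -0.06, and Pecam1 had 12.4, 11.6 and 12.2 CPM in KO tumours and 13.2 to 17.3 CPM in WT tumours, without overlap. Ttr, the main transcript of choroid plexus, was at most 0.0297 CPM in KO tumours, against 0 to 145 CPM in WT tumours, where replicate 5 held the highest value and the median was 0.508 CPM.

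Medians of the other lists, against -0.0028 for all genes, were 0.02 for p53 targets, 0.21 for hypoxia targets, 0.27 for immediate early genes, -0.01 for cholesterol synthesis, -0.06 for Wnt, BMP and Notch feedback genes, -0.07 for the Myc, Max and Mxd network, 0.01 for axon guidance genes and -0.06 for stem and progenitor markers. Sox2, a marker of slowly dividing progenitors, had 31.0, 25.0 and 30.6 CPM in KO tumours and ran from 21.4 to 55.2 CPM in WT tumours, with a median of 31.9. Interferon-stimulated genes had a median of 0.37 with the title form as covariate and -0.82 without it, and -0.42 with sex as a further term. The list scored 2.11, 1.80 and 1.54 in KO tumours and 1.17 to 4.26 in WT tumours, where WT replicate 6 was the highest.

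WT tumours with MS_pos titles were compared with those with number-first titles to size the difference that the title form carries. No gene passed an adjusted p of 0.05 in edgeR, and 683 genes (3.34%) were higher and 987 (4.82%) lower at an unadjusted p under 0.05, while DESeq2 called 55. The unadjusted lower count exceeded the 392 genes lower in KO tumours, from 4 and 2 libraries.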

How the data were processed

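Per the labels' protocols, polyA RNA extracted with RNeasy went into TruSeq RNA libraries. The authors deposited 1 table of raw counts per gene for these tumours, with 53379 rows and 10 libraries, which are whole numbers and not normalized. STAR 2.5.4b and mm9 are named in the submitters' processing notes, without role or order; of the counting program, its annotation and its use of strand nothing is stated (not given in the sources used here). Symbols and gene order came from GENCODE M21 (GRCm38), which named 53274 rows with 99.99% of the counts. The other table of the series was not used here. Groups follow the genotype labels.

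Genes were tested with edgeR 4.0.16 in R 4.3.3 (quasi-likelihood test, TMM, filterByExpr with a smallest count of 10, 20464 genes, Benjamini-Hochberg adjustment, threshold 0.05) with title form and genotype as terms over 9 libraries. The genotype term therefore compares 3 KO with 2 WT libraries, and the other 4 WT libraries add to the estimate of spread. CPM are counts scaled by TMM library sizes, and log2 CPM has a prior count of 2. Standard errors of log2 fold changes are the fold change's size over √F. Of the models used, only this edgeR fit was also run on simulated data. No 2 libraries were copies: over genes with 50 or more counts on average, chi-square per degree of freedom was 36 or more in each of 45 pairs.

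Named genes are 28 of the model, lineage and cell types, the 12 higher and 12 lower with the smallest p at a mean log2 CPM of at least 1 (no Y-linked, predicted or clone symbols), up to 3 members a list with the smallest p, and 5 protein-coding neighbours on each side of Kcnb2; a few are not reported here. The 36 lists hold 612 entries, 588 of them tested; all members and lists were chosen with earlier results of these data known. The Y-linked list had 0 of 4 genes higher, T, B and NK cell genes had 3 of 12 tested (1 higher, 2 lower), red cell genes had 5 of 6 higher at a median of 0.46, and unipolar brush cell genes had 6 of 6 higher at a median of 0.98; choroid plexus genes had a median of -0.05. Alternatives were DESeq2 1.42.0, other filters, no title form, number-first titles alone, sex as a further term, the library with conflicting labels in either group, and each library left out.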

Additional observations from a re-analysis of the deposited data

Results flagged for a closer look

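Within the 6 WT tumours, 34 list scores and 107 genes were checked for a library apart from the others (a gap, relative to the range, above Dixon's critical value), which chance gives in about 1 of 20 checks; 1 list score and 3 genes were. The score of interferon-stimulated genes was 4.26 in WT replicate 6 and 1.17 to 1.94 in the other WT tumours. Ttr was at 7.18 log2 CPM in WT replicate 5, against at most -0.08 in the others. In WT replicate 3, Meis2 was at 2.39 log2 CPM against at most -0.30, and Dlg4, a scaffold protein of excitatory synapses, was at 7.54 against at most 6.84. In KO tumours Dlg4 had 184, 212 and 138 CPM, beside 186 CPM in WT replicate 3.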

How the results depend on the processing

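Kcnb2 was lower in KO tumours under all alternatives, and it passed the threshold with DESeq2 alone (-1.84). Apart from the fits that left out 1 library, it ran from -1.38 with the library of conflicting labels as WT to -1.94 with it as KO. The log2 fold change ran from -1.98 to -1.73 over the fits that left out 1 library. Leaving out any of WT replicates 3 to 6 could barely move it, because the genotype term compares KO tumours with WT replicates 1 and 2. DESeq2 called 18 genes against 0 in edgeR for genotype and 55 against 0 for title form; the cause was not tested. Leaving out 1 library gave 0 to 1 genes for title form.

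Unadjusted counts were 606 higher and 392 lower genes, and genes with separate groups numbered 412 above and 646 below. Higher counts were 938 with DESeq2, 1092 with no filter, 1450 without title form, 1296 with number-first titles alone and 965 with sex as a term. Lower counts were 1908 without title form, 793 with the conflicting library as WT and 226 with it as KO. Leaving out 1 library gave 201 to 1137 higher and 100 to 819 lower. Genes with all KO above all WT numbered 687 with no filter, 2627 with number-first titles alone and 107 with the conflicting library as KO, and those below numbered 2290 and 203 under the last 2; leaving out 1 library gave 443 to 2124 above and 693 to 2575 below. Fewer libraries leave fewer values to exceed.

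Without title form, list medians were -0.33 for axon guidance, -0.20 for endothelium, -0.32 for ERK feedback, 0.020 for hypoxia, -0.034 for immediate early genes, -0.82 for interferon-stimulated genes, -0.29 for stem markers and -0.26 for Wnt, BMP and Notch. Also without title form, medians were 1.43 for oligodendrocytes, 1.09 for interneurons, 0.86 for Purkinje cells and -0.040 for EGF receptor genes. With the conflicting library as WT, list medians were -1.085 for choroid plexus and 0.043 for hypoxia, and with it as KO -0.10 for p53 targets and 0.19 for Wnt, BMP and Notch. Leaving out 1 library gave -0.22 to 0.37 for axon guidance, -0.64 to 0.93 for choroid plexus, -0.15 to 0.24 for ERK feedback, -0.20 to 0.20 for granule progenitor factors, 0.10 to 0.61 for Kv2 partners, -0.12 to 0.014 for the Myc network, -0.49 to -0.11 for pericytes and fibroblasts, -0.18 to 0.15 for Wnt, BMP and Notch and -0.097 to 0.027 for p53 targets.

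Of 107 named genes, 14 changed sign in some fit, and 45 moved by over 1.5 times in some fit without 1 library, 36 of them without WT replicate 2 and 27 without WT replicate 1. Without title form Cntn2 was at 0.20, Cx3cr1 at -0.38 and Sox2 at -0.26, and Cx3cr1 was at -0.23 with sex as a term. With the conflicting library as KO, Gfap was at 0.15, Msc at 0.29, Ttr at 8.43 and Zic1 at -0.053. Leaving out 1 library gave -0.24 to 0.086 for Barhl1, -0.058 to 0.31 for Cx3cr1, -0.32 to 0.19 for Gfap, -1.83 to 0.28 for Hhip, -0.078 to 0.38 for Lrrc8a, -2.40 to 0.074 for Mrc1, -0.67 to 0.87 for Msc, -0.047 to 0.67 for Neurod1, -1.13 to 0.27 for Piezo2, -0.30 to 0.15 for Rdh10, -4.83 to 2.47 for Ttr and -0.12 to 0.11 for Zic1. No paired analysis was possible because the labels carry no replicate numbers; they were given in accession order.

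The genotype term rested on 2 WT libraries, the 3 KO tumours were of 1 sex, and KO replicate 3 lay apart from the other KO tumours. In edgeR every gene missed the threshold, Kcnb2 included, although DESeq2 called Kcnb2 on the same libraries. Missing the threshold does not show that a gene was the same in both groups.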

Other observations

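The library whose labels conflict (its genotype field reads wild-type and its title ends as those of the KO tumours do) was put in no group. With all 10 libraries normalized together, it had 8.27 CPM of Kcnb2, against 9.95 to 13.8 CPM in KO tumours and 22.4 to 50.1 CPM in WT tumours. It had no read of Mcmdc2, where KO tumours had 0.0595 to 0.240 CPM and WT tumours 0.644 to 2.12 CPM. Gm37138 was at 0.677 CPM in it, at 0.958 to 1.49 CPM in KO tumours and at most 0.0904 CPM in WT tumours. Car11 was at 25.7 CPM in it, at 28.0 to 32.8 CPM in KO tumours and at 8.65 to 16.5 CPM in WT tumours. Hjurp, at 449 CPM, lay between KO tumours with 193 to 370.4 CPM and WT tumours with 590.5 to 1194 CPM. Pttg1, at 26.1 CPM, lay outside the KO range of 10.4 to 13.4 CPM and within the WT range of 12.6 to 28.7 CPM, and Mki67, at 719 CPM, lay within both. Rbp4, at 19.1 CPM, lay between KO tumours with 11.2 to 15.0 CPM and WT tumours with 25.4 to 38.8 CPM. The oligodendrocyte score of this library, 5.12, lay within the KO range of 4.17 to 6.48 and the WT range of 1.37 to 6.09. Its Hedgehog, mitosis and replication scores, at 7.07, 7.03 and 6.305, were above the highest KO scores of 6.98, 6.93 and 6.29. Its synaptic vesicle and Purkinje cell scores, at 6.37 and 4.8, were below the lowest KO scores of 6.77 and 5.31. All of these scores lay within the WT ranges. Its choroid plexus score of 4.60 was above the KO range of 1.31 to 1.78 and the WT range of 0.87 to 3.89.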
